A study of Mus musculus with 2 samples.

Results

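Translation initiation and elongation factors were compared between 2 human tumor xenografts. Genes were taken by symbol, as every gene whose name begins with EIF or EEF and a digit, without the eIF2 kinases, the pseudogenes, the antisense genes and the Y-linked copy of EIF1AX. This gave 65 genes among 57011 distinct gene labels, on 62573 rows of the table. Of these 65 genes, 57 had an entry of their own and 8 stood only in loci merged with another gene. Of the 57, 50 reached 1 FPKM in at least 1 library, 3 lay under it and 4 were listed at 0 in both libraries. FPKM scales fragments to transcript length and to the fragments mapped, so levels of different genes can be set side by side.

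Both tumors were gastroenteropancreatic neuroendocrine tumors carried as patient-derived xenografts in athymic nude mice (Foxn1nu), which lack a thymus and so mature T cells. The primary tumor was carried in the flank and the metastatic one in the peritoneal cavity, with no treatment given in the labels. Each group was a single library, so nothing could be tested against replicate spread, and tumor origin and graft site cannot be told apart. The labels do not state whether both tumors came from 1 patient.

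Deposited FPKM summed to 784987 in the primary tumor and 885319 in the metastatic one, and read depth is unknown. Of 10 neuroendocrine markers with an entry of their own, 6 reached 1 FPKM in a library. CHGA, a defining granule protein, was listed at 0 in both, and SYP stood at 1.63 FPKM in the primary tumor and 1.96 in the metastatic one. The summed level of these markers was 283 FPKM in the primary tumor and 811 in the metastatic one, most of it from UCHL1. Past 2-fold, 2 of them were higher and 2 lower, the latter INSM1 at 3.54 and 0.271 FPKM and SCG2 at 2.62 and 0.340. The summed level was 523 and 160 FPKM for 9 fibroblast markers, 25.5 and 3.62 for 7 endothelial markers, 5.36 and 13.3 for 7 leukocyte markers, and 300.0 and 718 for 7 hepatocyte markers. Single genes set some of these sums. COL1A2 held most of the fibroblast sum, at 474 and 149 FPKM. Past 2-fold, 4 fibroblast markers were lower and 1, DCN, was higher, at 0.370 and 2.89. EGFL7 held most of the primary endothelial sum, at 19.1 and 1.58. LYZ stood at 2.72 and 11.97 FPKM while the leukocyte marker CSF1R stood at 1.06 and 0.243. FGB held most of the metastatic hepatocyte sum, at 111 and 499, while the hepatocyte marker CPS1 stood at 31.7 and 2.96. KDR of the endothelial and CD3E of the leukocyte markers were listed at 0 in both libraries. For these and for CHGA a 0 may be an absent transcript or a failed estimate, since the ribosomal genes RPL7A, RPS18 and RPS25 were also listed at 0. Host cells of a xenograft are of mouse, while the build was human and the handling of mouse reads is not stated. The marker sums therefore cannot be read as host cell content. The part of these cell types in the factor levels was not tested, and in bulk RNA a change in cell numbers and a change in RNA per cell cannot be told apart.

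Protein synthesis starts when the small ribosomal subunit, loaded with initiator methionyl-tRNA by eIF2, is recruited to the capped end of an mRNA. The cap is bound by eIF4E, which with the scaffold eIF4G and the RNA helicase eIF4A forms eIF4F, and eIF3 bridges eIF4G to the small subunit. After the start codon is found, eIF5 and eIF5B let the large subunit join, and elongation then runs on eEF1A, which brings aminoacyl-tRNAs, and eEF2, which moves the ribosome along. Translation factors are abundant housekeeping proteins, and several are controlled by phosphorylation or by binding partners, which RNA levels do not show.

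Most factors stood somewhat higher in the metastatic tumor, and the most abundant of them, EEF1A1, stood more than 2-fold lower. Differences are given as log2((metastatic + 1)/(primary + 1)) of FPKM, metastatic over primary. Over the 50 factors with at least 1 FPKM, the median log2 ratio was 0.30 (95% binomial interval of the median across genes 0.19 to 0.49). Over all 12990 single-gene entries that passed the same filter it was 0.03. The interval covers the spread across the factors only, since genes are not replicates of a condition, and it tests no difference between the tumors. Of the 50, 40 lay above 0 and 10 below, a share of 80% above 0 against 51.3% of all entries and 58.1% of those with a mean of at least 10 FPKM. At least 2-fold higher were 5 factors, EIF2S2, EIF4EBP1, EIF2B3, EIF6 and EIF3J, a share of 10%, where 9.35% of all entries were that much higher. At least 2-fold lower was 1 factor, EEF1A1, a share of 2%, where 9.54% of all entries were. At 1.5-fold, 13 factors were higher and 4 lower, shares of 26% and 8%, against 21.7% and 20.4% of all entries. The shares of higher factors were thus near the background at both thresholds and those of lower ones were smaller, a difference that was not tested. EIF3C and EIF5AL1 passed the filter only through the metastatic library and are among the 40.

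Abundant genes as a whole also stood higher in the metastatic tumor. Among 44 factors with a mean of at least 10 FPKM the median was 0.27, against 0.14 over 6444 entries of that abundance. Of these 44, 11.4% were at least 2-fold higher and 2.27% lower, against 9.59% and 6.56% of the abundant entries. At 1.5-fold, 27.3% were higher and 9.09% lower, against 24.2% and 14.8%. Dividing each library by its own sum moved the median of all entries from 0.03 to -0.13 and that of the factors from 0.30 to 0.14, since it shifts nearly every log2 ratio alike. Under that scaling 3 factors were at least 2-fold higher and 1 lower, while 7.31% of all entries were higher and 12.9% lower. EIF1, EIF3F, EIF3M, EIF4G2 and EIF4G3 then turned from just above 0 to below it, which left 35 of 50 factors above 0.

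**Figure D1:**
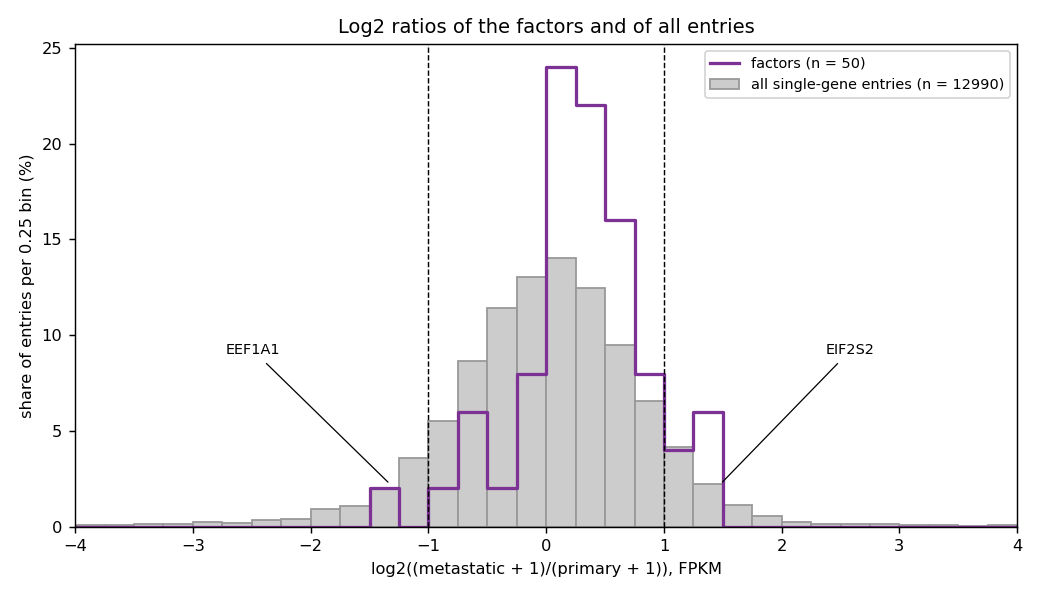
Share of entries (%) in each bin of log2((metastatic + 1)/(primary + 1)) FPKM, for all 12990 single-gene entries (grey bars) and for the 50 factors (line), with dashed lines at 2-fold and the axis ending at 4 on either side. The factors peak just above 0, with 24% of them in the bin from 0 to 0.25 against 14.0% of all entries, and EEF1A1 stands alone among them beyond the 2-fold line on the lower side.

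The genes named after eIF1 and eIF1A, the factors of start codon recognition, stood level or higher. EIF1, which guards start codon selection, had 536 FPKM in the primary tumor and 547 in the metastatic one. Its close paralog EIF1B had 75.2 and 114 FPKM, so that EIF1B stood at 0.140 of EIF1 in the primary tumor and 0.209 in the metastatic one. EIF1AX, the X-linked copy of eIF1A, stood at 21.7 and 30.8 FPKM, a value made uncertain by a near-identical copy. EIF1AD, a protein related to eIF1A, stood at 13.9 and 22.2. All 4 log2 ratios lay above 0, from 0.03 to 0.64, where 51.3% of all entries lay above 0. The abundant EIF1 was the one nearest to 0. Its ratio turned below 0 under every rescaling of the libraries and with a length trend removed.

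The subunits of eIF2, the GTPase that carries initiator tRNA, were closer to each other in level in the metastatic tumor. EIF2S2, the beta subunit, stood at 44.8 FPKM in the primary tumor and 126 in the metastatic one, a log2 ratio of 1.48, the highest of all 50 factors. EIF2S1, the alpha subunit that stress kinases phosphorylate, stood at 175 and 262 FPKM, a log2 ratio of 0.58. EIF2S3, the tRNA-binding gamma subunit, stood at 146 and 172, a log2 ratio of 0.23. The beta subunit was thus the scarcest of the 3 in both tumors, but the highest subunit exceeded the lowest 3.90-fold in the primary tumor and 2.07-fold in the metastatic one. EIF2A, which is not a subunit of eIF2 despite its name, had 249 and 283 FPKM, and EIF2D, which can also bring tRNA to the ribosome, had 25.5 and 35.5. EIF2S3B, a copy of EIF2S3, was under 1 FPKM in both libraries, at 0.331 and 0.542.

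The exchange factor eIF2B, which reloads eIF2 with GTP and is blocked by phosphorylated eIF2, showed a similar pattern in its gamma subunit. EIF2B3, that subunit, stood at 18.7 FPKM in the primary tumor and 46.7 in the metastatic one, a log2 ratio of 1.28. It was the scarcest of the 5 subunits in the primary library and the median one in the metastatic library. EIF2B1 stood at 22.7 and 33.2 FPKM and EIF2B2 at 47.1 and 56.1. The catalytic subunit EIF2B5 stood at 41.5 and 55.1, and EIF2B4 at 35.6 and 34.8. The highest subunit exceeded the lowest 2.52-fold in the primary tumor and 1.69-fold in the metastatic one.

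The subunits of eIF3, the largest initiation factor, did not move together. Of 12 subunits with at least 1 FPKM, 9 lay above 0 and 3 below, and their median log2 ratio was 0.19. That is 75% above 0, against 51.3% of all entries, and the 9 include EIF3C, which passed the filter only through the metastatic library. At least 1.5-fold higher were 3 of them and that much lower were 2, shares of 25% and 16.7%. Over all entries these shares were 21.7% and 20.4%, so both were near the background. EIF3J, a loosely bound subunit, stood at 70.3 FPKM in the primary tumor and 151 in the metastatic one, a log2 ratio of 1.10. EIF3G stood at 368 and 678 FPKM (0.88) and EIF3I, of the same outer module, at 152 and 259 (0.76). At least 1.5-fold lower were EIF3H, at 406 and 248 FPKM (-0.71), and EIF3E, at 730 and 454 (-0.68). Both belong to the structural core of eIF3, and EIF3E was the most abundant eIF3 transcript in the primary tumor.

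The other subunits stood close to level. EIF3A, the largest subunit, had 71.4 and 85.8 FPKM, and EIF3B, a scaffold of the complex, 109 and 126. EIF3D, which can itself bind caps, had 151 and 183 FPKM, EIF3F 84.5 and 91.5, EIF3L 719 and 688, and EIF3M 341 and 375. Between EIF3A and the most abundant subunit, the level differed 10.2-fold in the primary tumor and 8.01-fold in the metastatic one. EIF3C was near 0, at 0.925 and 1.18 FPKM, beside its near-identical copy EIF3CL at 0.0591 and 0.0887. Reads that fit both copies cannot be placed on either, and these values are uncertain. EIF3K was listed at 0 in both libraries, which for a gene of every cell can be a failed estimate.

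**Figure D2:**
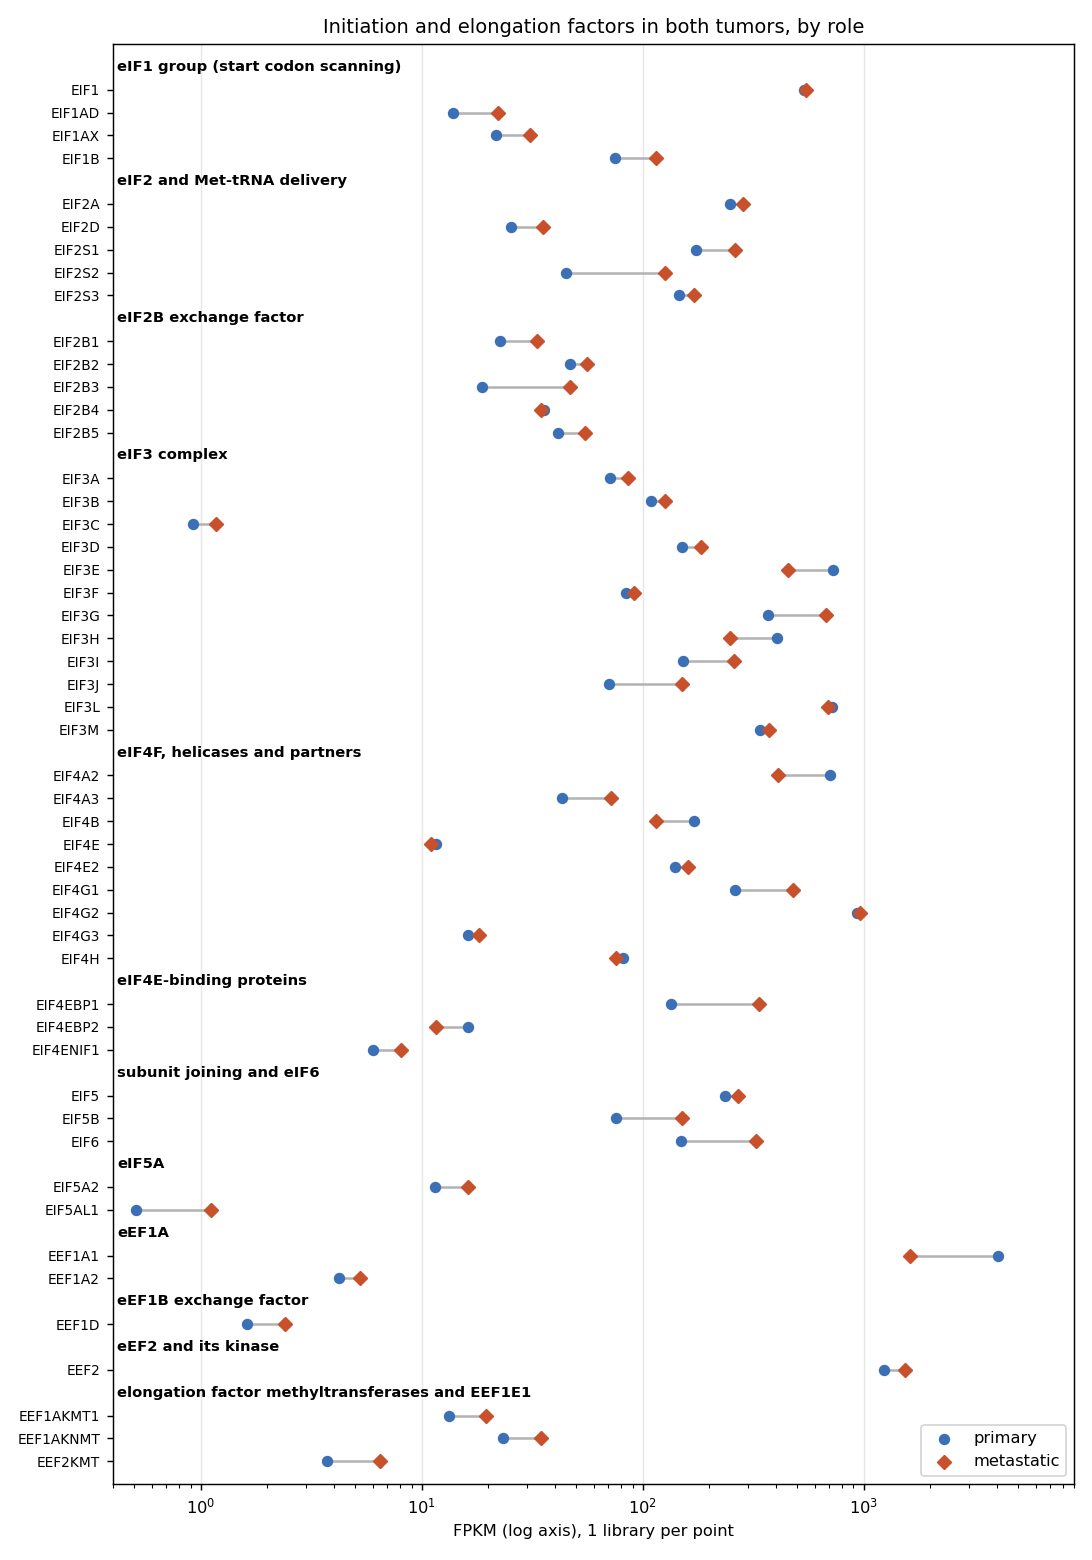
FPKM (log axis) of the 50 factors with at least 1 FPKM in a library, grouped by role, with the primary library as circles and the metastatic library as diamonds. EEF1A1 shows the widest downward gap, from 4048 to 1619 FPKM, while EIF2S2, EIF2B3, EIF3J, EIF4EBP1, EIF6 and, at the low end, EIF5AL1 show upward gaps of more than 2-fold in FPKM.

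The parts of the cap-binding complex eIF4F differed in direction. EIF4E, the cap-binding protein, was scarce and level, at 11.7 FPKM in the primary tumor and 11.0 in the metastatic one. EIF4G1, the main scaffold, stood at 263 and 481 FPKM, a log2 ratio of 0.87, so that the scaffold exceeded EIF4E 22.6-fold in the primary tumor and 43.7-fold in the metastatic one. The other scaffolds stood closer to level. EIF4G3 had 16.2 and 18.3 FPKM, and EIF4G2, which lacks the eIF4E-binding site and serves cap-independent initiation, had 935 and 964. EIF4G2 thus exceeded EIF4G1 3.56-fold in the primary tumor and 2.004-fold in the metastatic one.

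The helicases also parted. EIF4A2 stood at 705 FPKM in the primary tumor and 412 in the metastatic one, a log2 ratio of -0.77. Its paralog EIF4A1 was listed only in a locus merged with SENP3 and CD68, which stood at 870 and 996. EIF4A3, which works in the exon junction complex rather than in initiation, stood at 43.0 and 72.0 FPKM (0.73). EIF4B, which stimulates eIF4A, stood at 171 and 115 FPKM (-0.57), and EIF4H, with a like function, at 81.5 and 75.5 (-0.11). EIF4E2, a cap-binding relative of eIF4E linked to repression, had 140 and 160 FPKM. EIF4E3 shared a locus with FOXP1 at 20.4 and 21.3, and EIF4E1B, a germ cell form, was listed at 0 in both.

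The inhibitors that bind eIF4E went opposite ways. EIF4EBP1, which blocks eIF4E until mTOR phosphorylates it, stood at 135 FPKM in the primary tumor and 335 in the metastatic one, a log2 ratio of 1.31. EIF4EBP2, its paralog, stood at 16.1 and 11.6 FPKM (-0.44). EIF4EBP1 therefore exceeded EIF4EBP2 8.36-fold in the primary tumor and 28.8-fold in the metastatic one, and exceeded EIF4E 11.6-fold and 30.4-fold. EIF4EBP3 stood in a locus merged with ANKHD1, at 91.1 and 64.2 FPKM. EIF4ENIF1, which carries eIF4E into the nucleus, stood at 5.998 and 8.04. RNA levels give no measure of how much of the inhibitor was phosphorylated.

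**Figure D3:**
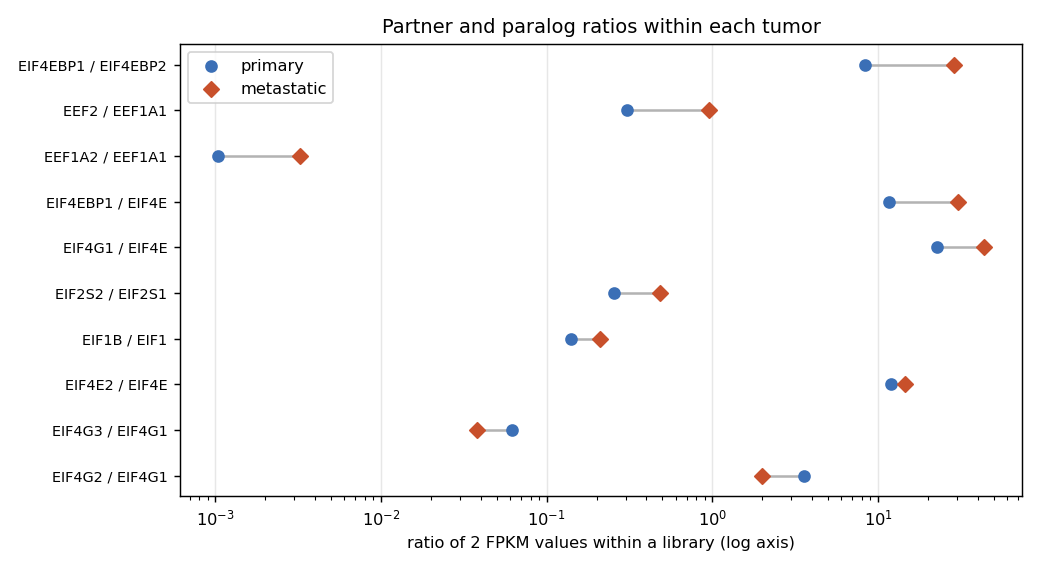
Ratio of 2 FPKM values within a library (log axis) for pairs of partners or paralogs, primary as circles and metastatic as diamonds. The ratio of EIF4EBP1 to EIF4EBP2 moves from 8.36 to 28.8 and that of EEF2 to EEF1A1 from 0.305 to 0.955, values that do not depend on how a library is scaled. These 2 pairs, and those of EIF2S2, EIF4E2 and EIF4G2, were chosen after their values were seen.

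Among the 3 factors of subunit joining and of the large subunit, EIF6 passed the 2-fold mark upward and EIF5B passed only the 1.5-fold mark. Of all entries, 9.35% passed the 2-fold mark upward and 21.7% the 1.5-fold mark. A difference of these 3 genes from the background was not tested. EIF5B, the GTPase that joins the ribosomal subunits, stood at 75.7 FPKM in the primary tumor and 150.1 in the metastatic one, a log2 ratio of 0.98. EIF6, which keeps the large subunit apart and takes part in its assembly, stood at 149 and 324 (1.11). The EIF6 entry also carries MMP24OS, an opposite-strand gene, and a clone name, so some of its fragments may not be from EIF6. EIF5, which activates the GTPase of eIF2, was closer to level at 237 and 271 FPKM (0.19). EIF3J and EIF6 were under the 2-fold mark when each library was divided by its sum, at 0.93 and 0.94.

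The factor eIF5A, which helps ribosomes through proline stretches and carries the modified lysine hypusine, could not be followed in its main gene. EIF5A was listed at 0 in both libraries. EIF5A2, a paralog amplified in some carcinomas, stood at 11.5 FPKM in the primary tumor and 16.1 in the metastatic one. EIF5AL1, a copy of EIF5A, stood at 0.510 and 1.11 FPKM.

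Elongation factors held the widest lower value. EEF1A1, the ubiquitous form of eEF1A and one of the most abundant transcripts of most cells, stood at 4048 FPKM in the primary tumor and 1619 in the metastatic one, a log2 ratio of -1.32. Its many pseudogene copies can share its reads, and 39 such labels summed to 33.6 and 20.3 FPKM. The part of shared reads in the EEF1A1 values was not tested. EEF1A1 made up 31.2% of the summed FPKM of the 50 factors in the primary tumor and 13.7% in the metastatic one. That sum was 12981 and 11819 FPKM, and without EEF1A1 it stood at 8933 and 10199. EEF1A2, the form of muscle and nerve, was low at 4.23 and 5.26 FPKM and stood at 0.00104 of EEF1A1 in the primary tumor and 0.00325 in the metastatic one. EEF2, the translocase, stood at 1234 and 1546 FPKM (0.33), so that EEF2 stood at 0.305 of EEF1A1 in the primary tumor and at 0.955 in the metastatic one. EEF2K, which inactivates eEF2, was under 1 FPKM in both, at 0.0761 and 0.0956. Its label stood on 2 rows, as did those of EIF3K, EIF5A, EEF1B2 and EEF1D, also at 0 or low. The EEF2K value may likewise be a failed estimate.

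The exchange factor of eEF1A could be followed in part. EEF1G stood in a locus merged with TUT1, at 1055 FPKM in the primary tumor and 662 in the metastatic one. EEF1D had 1.62 and 2.41 FPKM, and EEF1B2 was listed at 0 in both libraries. Both are genes of most cells, so these low values may also be failed estimates.

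Of 3 elongation factor methyltransferases with an entry of their own, 0 were past 2-fold and 1, EEF2KMT, was at least 1.5-fold higher. Over all entries, 9.35% were at least 2-fold higher and 9.54% lower, and 21.7% were at least 1.5-fold higher. EEF1AKMT1 stood at 13.3 FPKM in the primary tumor and 19.5 in the metastatic one, EEF1AKNMT at 23.3 and 34.6, and EEF2KMT at 3.71 and 6.47. The other 3 were read in merged loci, EEF1AKMT2 with FAM53B at 41.0 and 34.5 FPKM, EEF1AKMT3 with TSFM at 46.2 and 85.8, and EEF1AKMT4 with ECE2 at 9.40 and 25.997. EEF1E1, a scaffold of the tRNA synthetase complex, stood in a locus with TXNDC5 and BLOC1S5 at 120 and 211 FPKM.

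Ribosomal proteins, the partners of these factors, stayed nearly level. Of 86 cytosolic ribosomal protein genes and paralogs, 70 had an entry of their own with at least 1 FPKM, and their median log2 ratio was 0.04 (interval -0.11 to 0.12). At least 2-fold higher was 1 of them, RPL26L1, at 28.4 and 66.3 FPKM, and at least 2-fold lower was 1, RPL39L, at 7.20 and 2.61. Both are minor paralogs of other ribosomal genes. Each count was a share of 1.43%, beside 9.35% of all entries higher and 9.54% lower. A further 3 genes of the list were listed at 0 in both libraries. The quartiles of the ribosomal genes lay at -0.24 and 0.19, and those of the factors at 0.12 and 0.59.

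Genes that modify or assist the factors differed in median by list, with few genes in each. Of 7 hypusine and diphthamide enzymes, which modify eIF5A and eEF2, 2 stood at least 2-fold higher and none that much lower, around a median of 0.52. Their share of 28.6% higher stood beside 9.35% of all entries, a difference that was not tested. DOHH, which completes hypusine, stood at 3.25 and 9.67 FPKM, DPH3 at 20.1 and 46.1 and DPH2 at 22.5 and 42.8. Of 7 termination and recycling genes 1 stood at least 2-fold higher, a share of 14.3%, around a median of 0.29. It was MCTS1, at 24.0 and 54.0 FPKM. Its partner DENR, which with MCTS1 recycles small subunits, stood at 39.6 and 53.6, and GSPT1, the release factor eRF3, at 91.4 and 118.

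Regulators of initiation were mixed. At 2-fold, 9.35% of all entries were higher and 9.54% lower. Of 6 eIF2 kinases and phosphatase subunits 0 were higher and 1 lower at 2-fold, a share of 16.7% lower, with a median of -0.07. That 1 was PPP1R15A, which directs dephosphorylation of eIF2 and is also induced by stress, at 60.3 and 17.5 FPKM. The kinases EIF2AK1 and EIF2AK4 stood at 51.0 and 36.5 FPKM and at 10.2 and 14.0. Of 11 genes of poly(A) binding and of mTOR and MNK signalling, 0 were past 2-fold in either direction, with a median of 0.08. MTOR stood at 12.4 and 23.8 FPKM, PAIP1, a partner of poly(A)-binding protein, at 41.5 and 25.96, and RPTOR, the mTORC1 scaffold, at 3.45 and 5.63.

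The mitochondrial and selenocysteine machineries held no gene past 2-fold among those with an entry of their own. Of all entries, 9.35% were at least 2-fold higher and 9.54% lower. Of 10 mitochondrial translation factors 0 were past 2-fold, with a median of 0.27. TUFM, the mitochondrial counterpart of eEF1A, stood at 241 and 478 FPKM, MRRF at 26.3 and 46.7 and GFM1 at 35.2 and 59.4. Of 5 genes of selenocysteine decoding 0 were past 2-fold, with a median of 0.10. SEPSECS stood at 3.51 and 2.51 FPKM, SECISBP2 at 23.0 and 17.9 and SEPHS1 at 56.7 and 69.9.

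**Figure D4:**
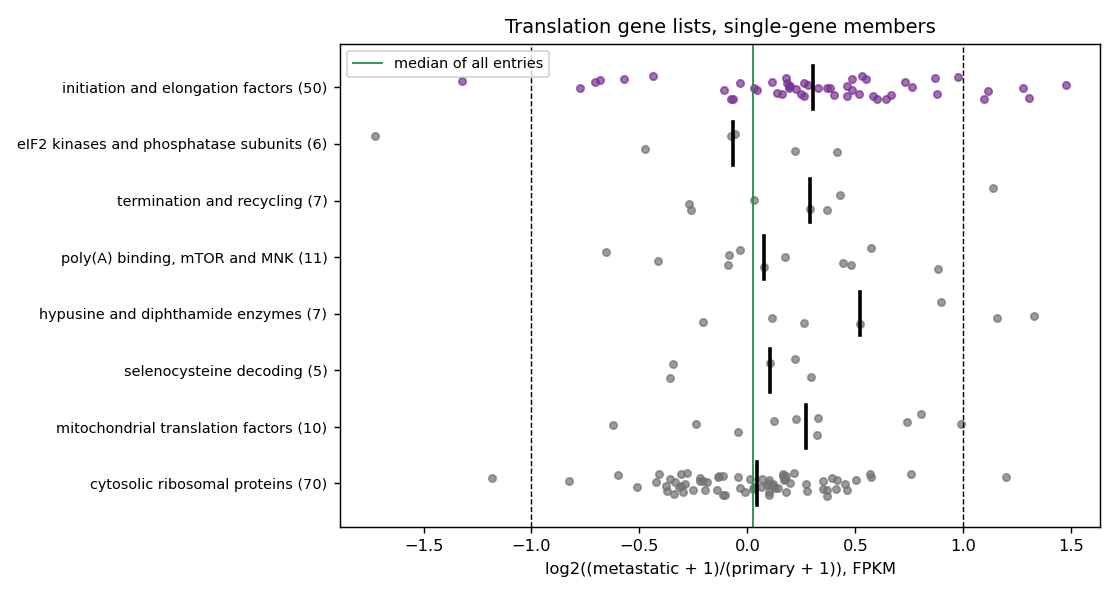
Log2((metastatic + 1)/(primary + 1)) of FPKM for each single-gene member of the factors and of 7 other translation lists, with the number of genes in brackets, bars at the medians, dashed lines at 2-fold and a line at the median of all entries. The 70 ribosomal genes gather around 0.04, and the 50 factors spread from -1.32 to 1.48 around 0.30.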

How the data were processed

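The authors deposited 1 table of FPKM with a column for each of the 2 libraries, per the file headers. STAR 2.7.6a, Cufflinks 2.2.1, bcl2fastq 2.18.0.12 and the human build GRCh38 are named in the submitters' processing notes, with no role or order, while the labels give mouse as the organism. How mouse reads were handled, the annotation and the total behind each FPKM column are not stated in the sources. A different total per column would shift every log2 ratio alike.

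Rows of the same label were summed. A locus merged from several symbols was taken for a gene if the rest were clones, short RNAs or antisense genes. The pseudocount was 1 FPKM, the filter 1 FPKM in at least 1 library, and the threshold 2-fold. EIF4EBP1, EIF4EBP2 and EIF4EBP3 end like pseudogenes but are genes and were kept. All factors are named, and from each other list up to 3 genes with the widest log2 ratio, of which 1 is not reported here. Members and lists were chosen with earlier results of these data known. Python 3.11.15, pandas 2.3.3 and SciPy 1.17.1 were used. Sequences were not used here, since the reference tables were of mouse.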

Additional observations from a re-analysis of the deposited data

How the results depend on the processing

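No paired analysis was possible because each group held 1 library, and for the same reason no library could be left out. Of the alternatives, dividing by the library sums lowered the count of factors at least 2-fold higher from 5 to 3 and the median from 0.30 to 0.14. A 1.5-fold threshold gave 13 higher and 4 lower, beside 21.7% and 20.4% of all entries. A 4-fold threshold gave 0 and 0, beside 1.24% and 1.95%. Removing a trend with transcript length, an alternative chosen after seeing the data, gave 2 lower factors, EEF1A1 and EIF3H, in place of 1. Over the 9390 entries with a length, the Spearman correlation of length with log2 ratio was -0.27. Under this alternative 6.23% of these entries were higher and 8.33% lower. Of 46 factors with a length 35 lay above 0, and EIF1, EIF3M and EIF4E changed sign. The lengths were of mouse transcripts of the same symbol, known for 92% of the factors and 72.3% of all entries, and EIF3J had none. EIF6 was then under 2-fold at 0.89, and EIF4G1 and EIF5B were past it at 1.10 and 1.27. EIF3G and EIF3I fell under 1.5-fold, at 0.51 and 0.39. Pseudocounts of 0.1 and 0.5, filters of 5 FPKM or none, a mean of at least 10 FPKM, scaling by the median ratio or the 75th percentile, the highest row in place of the sum, counting merged loci, and leaving out the eIF4E-binding proteins kept every count within 1.5 times and every median inside its interval. EEF1A1 was lower by at least 2-fold under every alternative except the 4-fold threshold. Unknown depth leaves low values such as EIF3C, EIF5AL1 and EEF1D without an error.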

Other observations

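Most expressed rows of EEF1A1 pseudogenes, which resemble the parent transcript and can take its reads, were lower as it was. Of 39 such labels 9 reached 1 FPKM in a library, and 8 of these were lower in the metastatic tumor and 1 higher. Among all 12990 single-gene entries, 6253 were lower. Since the pseudogene rows can take reads of EEF1A1, they are not independent of it. EEF1A1P5, the most abundant, stood at 14.2 FPKM in the primary tumor and 6.60 in the metastatic one, and all 39 summed to 33.6 and 20.3. Pseudogenes of EEF1B2, whose parent was listed at 0, summed to 3.86 and 5.98 FPKM over 8 labels, and those of EIF5A, also listed at 0, to 0.375 and 0.362 over 3.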
